A study of Mus musculus with 12 samples.

Results

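Amino acids and the small molecules derived from them cross membranes through carriers of the solute carrier (SLC) superfamily. The genes described here belong to 7 of its families, SLC1, SLC3, SLC6, SLC7, SLC36, SLC38 and SLC43, and were measured in blood cells of the mouse fetal liver. The members were chosen by a rule on gene symbols, leaving out Slc6a4, that did not use their values. Earlier results of these data were known when they were chosen. Of 19937 genes measured, 63 carried such a symbol. Of these, 61 encode transporters or transporter heavy chains, with 7 in SLC1, 2 in SLC3, 19 in SLC6, 15 in SLC7, 4 in SLC36, 11 in SLC38 and 3 in SLC43. The other 2, Slc7a6os and Slc6a19os, are named after a neighbouring gene and are counted apart.

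The study compared megakaryocytes (MEG), the precursors of platelets, and erythroblasts (ERY), the precursors of red cells, with the hematopoietic stem and progenitor cells (HSPC) that give rise to both. All came from fetal livers of mouse embryos at E14.5, untreated and with no genotype given in the labels, and each population was measured on 4 microarrays labelled as replicates. MEG were grown in culture from fetal liver progenitors and enriched on CD41, an integrin of megakaryocytes. ERY were taken from the liver on Ter119, a surface antigen of maturing red cells, and HSPC, labelled HSC in the deposited data, were lineage-negative cells sorted for Sca1, a surface antigen of stem and progenitor cells. MEG thus differed from HSPC and ERY also in having been cultured, and culture and cell type cannot be told apart in any comparison with MEG. The methods call the replicates biological, but nothing in the labels says whether they came from separate animals or cultures, so the p-values measure the spread between these arrays.

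Values are log2 levels, so that each unit is a doubling, and each gene was read from 1 probe set. A gene was called changed at a 2-fold difference or more and an adjusted p under 0.05 in limma, a linear model fitted across all genes, with Benjamini-Hochberg adjustment over all 19937. A level was called above background if the mean of a population exceeded 5.95, the 95th percentile of the population means of 1027 olfactory receptor genes. Probe sets differ in their response, so a level is compared between populations and not between genes. On these arrays fewer cells of a type and less RNA per cell cannot be told apart.

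Each list of markers had its highest median on the arrays of its own population. The median level of 10 megakaryocyte genes was 12.39 to 12.54 on MEG, 7.36 to 8.04 on ERY and 7.87 to 8.97 on HSPC arrays. That of 10 erythroid genes was 6.20 to 6.54, 12.28 to 12.47 and 7.18 to 8.23 in the same order. That of 11 stem cell genes was 5.57 to 6.02, 5.84 to 6.04 and 8.50 to 9.42. Against HSPC, 9 of these 11 were lower in MEG and 1, Meis1, was higher (10.77 against 8.96). Mecom was below background in HSPC, at 5.44. The median level of 13 hepatocyte genes was between 5.34 and 6.09 on the MEG arrays, between 10.13 and 11.13 on the ERY arrays and between 8.44 and 9.98 on the HSPC arrays, with HSPC replicate 2 the highest of its population. The median level of 12 macrophage genes was between 6.88 and 8.59 on the MEG arrays, with MEG replicate 3 the highest, between 8.17 and 9.26 on the ERY arrays, with ERY replicate 1 the lowest, and between 6.75 and 7.59 on the HSPC arrays. The median level of 11 neutrophil and monocyte genes was 8.59 on MEG replicate 3 and 6.04, 6.24 and 6.90 on the other MEG arrays, between 5.98 and 6.53 on the ERY arrays, and between 9.56 and 9.94 on the HSPC arrays. The median change of these genes against HSPC was −1.16 in MEG and −2.54 in ERY, and their part in the changes of the transporter genes was not tested. Over the 12 arrays the medians ranged from 4.39 to 5.05 for mast cell genes, from 5.17 to 7.22 for lymphoid genes and from 5.96 to 7.89 for endothelial genes. Of the deviations of the HSPC arrays from their mean, 92.8% of the variance lay along 1 axis, with replicates 1 and 2 at one end and replicates 3 and 4 at the other. Over genes above background the median SD was 0.31 in MEG, 0.15 in ERY and 0.36 in HSPC.

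Amino acid transporters work as pumps driven by sodium, chloride or proton gradients, or as exchangers that trade 1 amino acid for another. SLC6 carriers take up glycine, proline, taurine, creatine and neurotransmitters with sodium and chloride. SLC1 and SLC38 carriers move glutamate, glutamine and small neutral amino acids, and some SLC38 and SLC36 proteins sit on the lysosome. Most SLC7 proteins are light chains that reach the membrane as a pair with a heavy chain, Slc3a2 or Slc3a1, and SLC43 carriers let large neutral amino acids pass down their gradient. Red cell precursors are known for a high demand for glycine, a substrate of the first step of heme synthesis, and all dividing blood cells need amino acids for protein synthesis.

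The promoters of the members with the largest increases are shown first, since these genes carry the largest values. RefSeq start sites on GRCm38.p6 could be matched for 44 of the 61 transporter genes, with 65 windows of 250 bases before the start. Slc7a11, the light chain of the cystine and glutamate exchanger, had the largest increase of the members in MEG. Its window, chr3:50443614-50443863 on the minus strand, held the string TGATGNAA, the core of the amino acid response element, 2 times, starting at positions −66 and −47 from the start and shown in capitals.
Slc7a11: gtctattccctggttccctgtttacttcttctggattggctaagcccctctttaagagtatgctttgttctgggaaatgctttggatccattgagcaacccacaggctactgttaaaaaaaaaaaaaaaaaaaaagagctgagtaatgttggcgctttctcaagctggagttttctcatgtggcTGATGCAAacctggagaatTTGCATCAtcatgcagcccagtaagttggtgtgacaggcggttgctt
At least 1 such string, on either strand, was in 3.45% of 32851 RefSeq windows of the same length, 2 or more were in 13 windows, and 4 of the 65 transporter windows held 1 or more. A match in this window is a description of its letters. The other windows are those of the genes with the 4 largest increases in ERY, shown with the string CCNCNCCC, of the kind bound by erythroid Krüppel-like factor, in capitals on either strand. Slc6a9, the glycine carrier GlyT1, has 3 RefSeq starts, and the window before the first of them is chr4:117835008-117835257 on the plus strand.
Slc6a9: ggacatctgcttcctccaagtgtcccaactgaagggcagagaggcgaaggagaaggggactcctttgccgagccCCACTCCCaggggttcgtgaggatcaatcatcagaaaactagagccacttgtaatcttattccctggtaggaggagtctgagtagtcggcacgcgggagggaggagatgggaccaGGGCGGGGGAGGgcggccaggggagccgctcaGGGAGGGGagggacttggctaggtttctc
The window of Slc38a5, a carrier of glutamine, asparagine and histidine, is chrX:8271131-8271380 on the plus strand.
Slc38a5: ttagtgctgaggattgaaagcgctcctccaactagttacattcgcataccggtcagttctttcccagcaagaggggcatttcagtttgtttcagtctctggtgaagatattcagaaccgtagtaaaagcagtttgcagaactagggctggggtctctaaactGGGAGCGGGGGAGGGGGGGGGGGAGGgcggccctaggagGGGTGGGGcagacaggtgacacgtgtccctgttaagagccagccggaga
The window of Slc6a20a, a carrier of proline, is chr9:123678833-123679082 on the minus strand.
Slc6a20a: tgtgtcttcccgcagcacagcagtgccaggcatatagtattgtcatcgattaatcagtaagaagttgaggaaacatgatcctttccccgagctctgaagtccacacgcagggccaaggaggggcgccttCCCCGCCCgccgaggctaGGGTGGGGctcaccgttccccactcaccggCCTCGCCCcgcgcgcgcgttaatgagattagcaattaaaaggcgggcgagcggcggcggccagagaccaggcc
The window of Slc43a1, the large neutral amino acid carrier LAT3, is chr2:84840073-84840322 on the plus strand.
Slc43a1: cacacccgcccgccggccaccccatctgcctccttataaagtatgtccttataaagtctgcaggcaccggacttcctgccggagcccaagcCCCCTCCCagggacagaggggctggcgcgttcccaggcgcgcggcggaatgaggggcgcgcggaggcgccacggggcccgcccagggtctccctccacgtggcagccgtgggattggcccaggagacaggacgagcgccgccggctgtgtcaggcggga
Matches that overlap were counted separately, which gave 4 in this Slc6a9 window, 9 in that of Slc38a5, 3 in that of Slc6a20a and 1 in that of Slc43a1. The string was in 45.9% of all windows and in 42 of the 65 transporter windows, so that its presence alone does not set these genes apart. None of these 5 windows held AGATAA or its variants with T in first or G in last place, strings of the kind bound by GATA factors, which were in 26.5% of all windows and in 19 of the 65 transporter windows on either strand.

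Many of the transporter genes were at background throughout, at a share near that of all genes. Of the 61, 38 were above background in at least 1 population and 26 in all 3, with 27 in MEG, 37 in ERY and 34 in HSPC. Of all 19937 genes, 12883 were above the same limit in at least 1 population. The levels of the 61 genes spanned 3.62 to 12.27 in MEG with a median of 5.86, 3.58 to 12.90 in ERY with a median of 6.13, and 3.27 to 12.09 in HSPC with a median of 6.09. The medians of all genes were 6.39 in MEG, 6.37 in ERY and 6.53 in HSPC. The 6 members with the highest mean over the arrays were Slc3a2, Slc7a5, Slc43a3, Slc38a2, Slc1a5 and Slc43a1. At background in every population were 23 genes, among them the glutamate carriers of nerve, glia and retina Slc1a1, Slc1a3, Slc1a6 and Slc1a7, the noradrenaline carrier Slc6a2, the second glycine carrier Slc6a5 and the intestinal and renal carriers Slc6a14, Slc6a19 and Slc7a9.

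**Figure D1:**
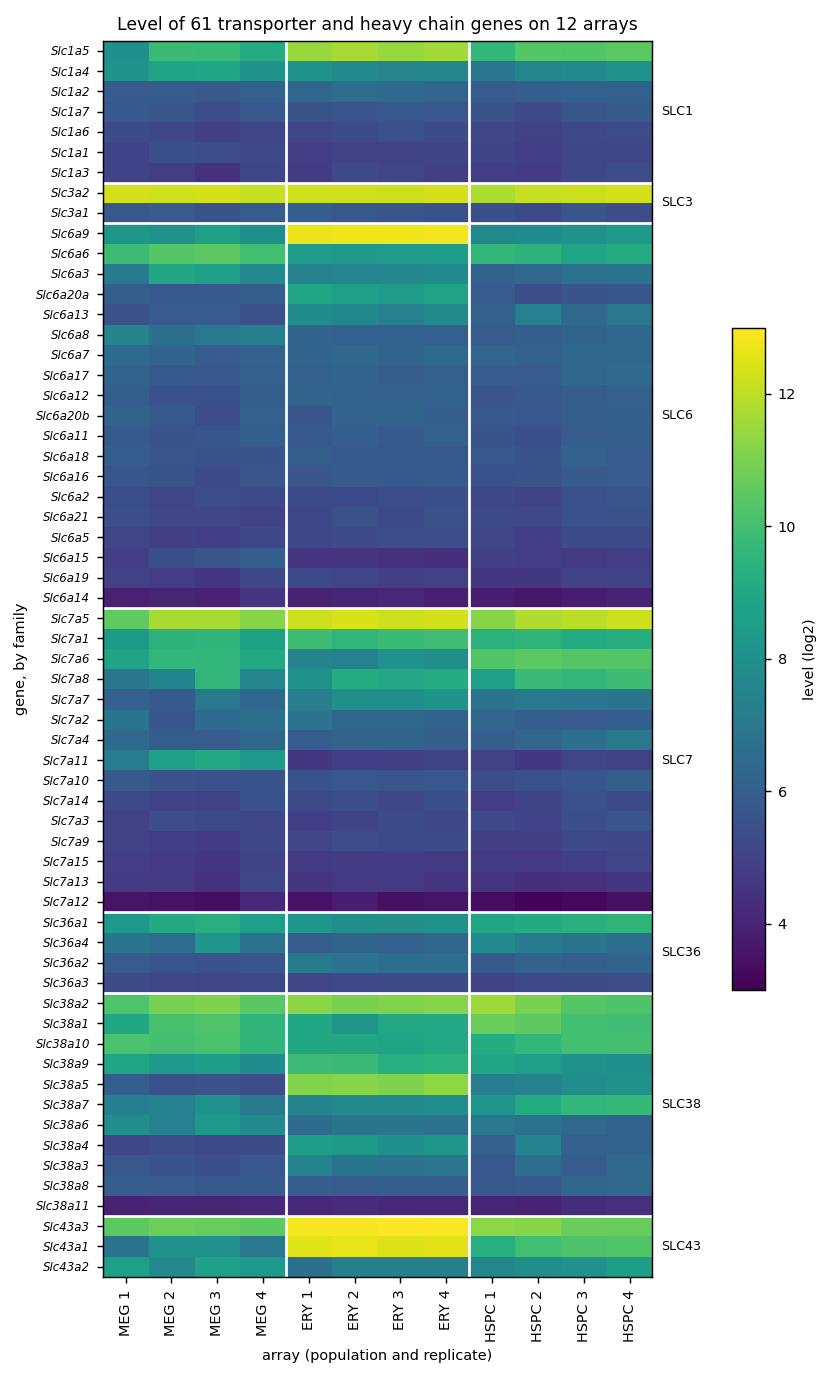
Level (log2, colour) of the 61 transporter and heavy chain genes (rows, by family and then by mean level) on the 4 MEG, 4 ERY and 4 HSPC arrays (columns). Slc3a2 is high on all 12 arrays, Slc6a9, Slc38a5, Slc43a1 and Slc43a3 are high on the ERY arrays, and Slc7a11 stands out on the MEG arrays.

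In MEG against HSPC, 11 of the 61 transporter genes changed, 3 higher and 8 lower. That is 18.0% of them, beside 20.2% of all genes tested, of which 8.77% were higher and 11.4% lower. In ERY against HSPC 13 changed, 9 higher and 4 lower, which is 21.3% beside 20.6% of all genes, with 8.35% higher and 12.3% lower. In MEG against ERY 20 changed, 7 higher and 13 lower, which is 32.8% beside 16.5% of all genes, with 8.75% higher and 7.77% lower. The median change of the 61 genes was −0.07 in MEG against HSPC, 0.14 in ERY against HSPC and −0.12 in MEG against ERY, where all genes had medians of −0.02, 0.03 and −0.02. The shares in the comparisons with HSPC were thus near those of all genes, and the share between MEG and ERY was higher.

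The split between higher and lower depends on what the arrays are scaled to. With 55 ribosomal protein genes set to the same median on every array, the median of all genes moved to 0.56 in MEG against HSPC, 0.49 in ERY against HSPC and 0.11 in MEG against ERY. The members called were then 7 higher and 3 lower in MEG against HSPC (70.0% higher, beside 27.3% as deposited), 13 higher and 2 lower in ERY against HSPC (86.7% beside 69.2%), and 10 higher and 11 lower in MEG against ERY (47.6% beside 35.0%). Of all genes called, 82.4% were then higher in MEG against HSPC (43.5% as deposited), 69.6% in ERY against HSPC (40.5%) and 60.1% in MEG against ERY (53.0%). Of the 44 called values, none changed sign under this or any other setting tried. Without HSPC replicate 2, 7 members were called in MEG against HSPC, since Slc1a5, Slc38a4, Slc6a13 and Slc7a8 no longer passed.

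Over the 3 comparisons 25 of the 61 transporter genes changed in at least 1 and 36 in none, where 32.9% of all genes changed in at least 1. Slc6a3 was higher than in HSPC in both lineages, Slc38a7 and Slc7a6 were lower in both, and Slc1a5, Slc38a4, Slc38a5 and Slc43a1 were lower in MEG and higher in ERY. A further 8 differed between MEG and ERY with no call against HSPC. Of the 36 with no call, 22 were at background in every population, with changes between −0.34 and 0.36. The other 14 were above background somewhere and had changes between −0.97 and 0.99.

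**Figure D2:**
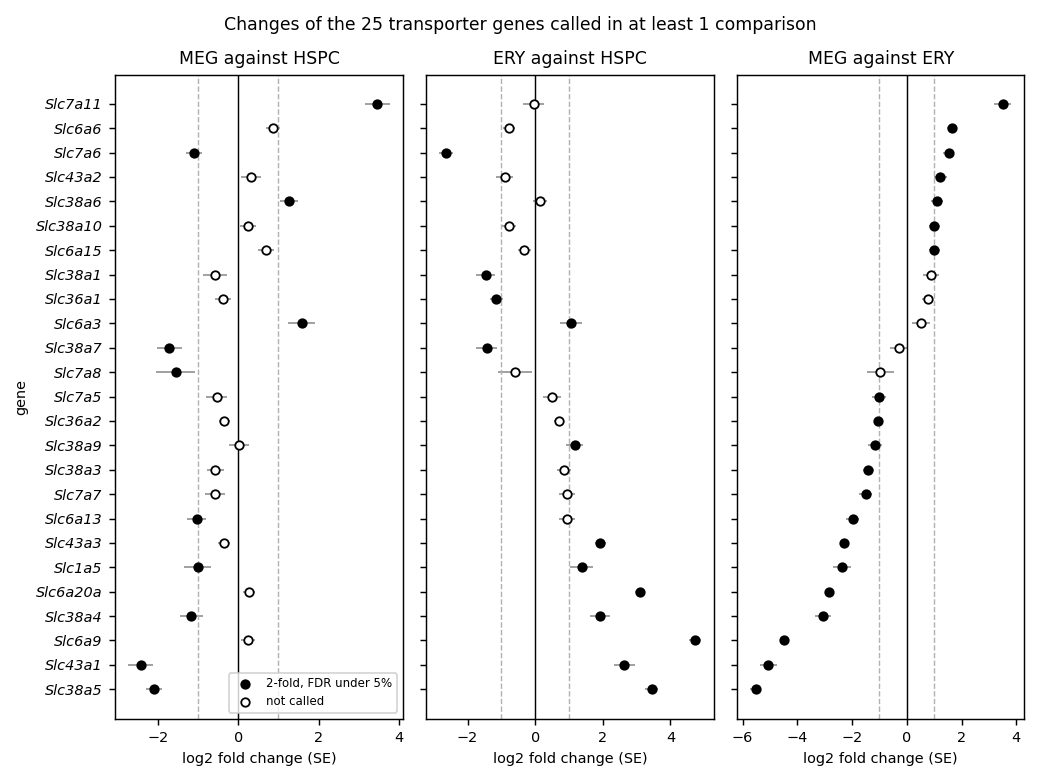
Log2 fold change with its SE (x axes) of the 25 transporter genes called in at least 1 comparison (rows, ordered by MEG against ERY), for MEG against HSPC, ERY against HSPC and MEG against ERY. Filled points passed a 2-fold change and an adjusted p under 0.05, and the dashed lines mark a 2-fold change. Slc38a5 at −5.53 and Slc43a1 at −5.06 stand at the low end of MEG against ERY, and Slc7a11 at 3.51 at the high end.

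In the SLC6 family, which carries glycine, proline and neurotransmitters, 6 of 19 genes changed in at least 1 comparison, beside 32.9% of all genes. Slc6a9 measured 8.30, 8.13, 8.69 and 7.98 on the MEG arrays, 12.70, 12.75, 12.74 and 12.82 on the ERY arrays, and 7.80, 7.86, 8.11 and 8.38 on the HSPC arrays. All ERY arrays were about 4 units above every other array, while MEG and HSPC overlapped. The increase in ERY against HSPC was 4.72 ± 0.17 (SE), or 26.3-fold, with an adjusted p of 1.73e-09, the 40th largest increase of all genes. In MEG against HSPC the change was 0.24 ± 0.17, with an adjusted p of 0.31. Slc6a5, the other dedicated glycine carrier, stayed at background, with means of 4.99 in MEG, 5.33 in ERY and 5.13 in HSPC.

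Slc6a20a, which takes up proline and related imino acids, was the second SLC6 gene to rise in ERY. It measured 6.02, 5.76, 5.77 and 6.02 on the MEG arrays, 9.0, 8.66, 8.52 and 8.76 on the ERY arrays, and 5.89, 5.36, 5.60 and 5.66 on the HSPC arrays. ERY did not overlap the other populations, whose means were below background. The change was 3.11 ± 0.15 (adjusted p = 1.34e-08) in ERY against HSPC. Its close relative Slc6a20b changed in no comparison, with means of 5.86 in MEG, 5.99 in ERY and 5.87 in HSPC.

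Slc6a3, the dopamine transporter, was higher in both lineages. It measured 7.11, 9.0, 8.63 and 7.75 on the MEG arrays, 7.44, 7.57, 7.62 and 7.73 on the ERY arrays, and 6.19, 6.41, 6.72 and 6.84 on the HSPC arrays. Neither lineage overlapped HSPC, but MEG and ERY overlapped each other. The change was 1.58 ± 0.33 (adjusted p = 0.00264) in MEG and 1.05 ± 0.33 (adjusted p = 0.0268) in ERY. The call in ERY was lost without any 1 of ERY replicates 2, 3 and 4 or of HSPC replicates 1 and 2, with changes between 0.94 and 1.06 and adjusted p up to 0.0653.

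Slc6a6, the taurine transporter, separated the 2 lineages without passing the 2-fold threshold against HSPC. It measured 9.87, 10.33, 10.47 and 9.98 on the MEG arrays, 8.52, 8.42, 8.53 and 8.58 on the ERY arrays, and 9.64, 9.48, 8.93 and 9.15 on the HSPC arrays. All MEG arrays were above, and all ERY arrays below, every HSPC array. MEG exceeded ERY by 1.65 ± 0.18 (adjusted p = 1.33e-05), with a change of 0.87 in MEG and of −0.78 in ERY against HSPC. Taurine carriage is shared by Slc6a13, a carrier of GABA and taurine that is known from liver and kidney, which moved with the hepatocyte genes. Slc6a8, the creatine transporter, averaged 7.12 ± 0.36 in MEG, 6.12 ± 0.07 in ERY and 6.13 ± 0.21 in HSPC (SD, n = 4 each). MEG lay above the other populations with no overlap, but its changes of 0.99 against HSPC and against ERY were just under 2-fold, with adjusted p of 0.00088 and 0.00082.

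Slc6a15, a carrier of branched-chain amino acids and proline known from brain, had a MEG mean of 5.48, an ERY mean of 4.48 and an HSPC mean of 4.80, all below background. Its call in MEG against ERY (1.0 ± 0.20, adjusted p = 0.00182) was lost without MEG replicate 3 or 4 or ERY replicate 3 or 4, with values between 0.82 and 1.0.

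**Figure D3:**
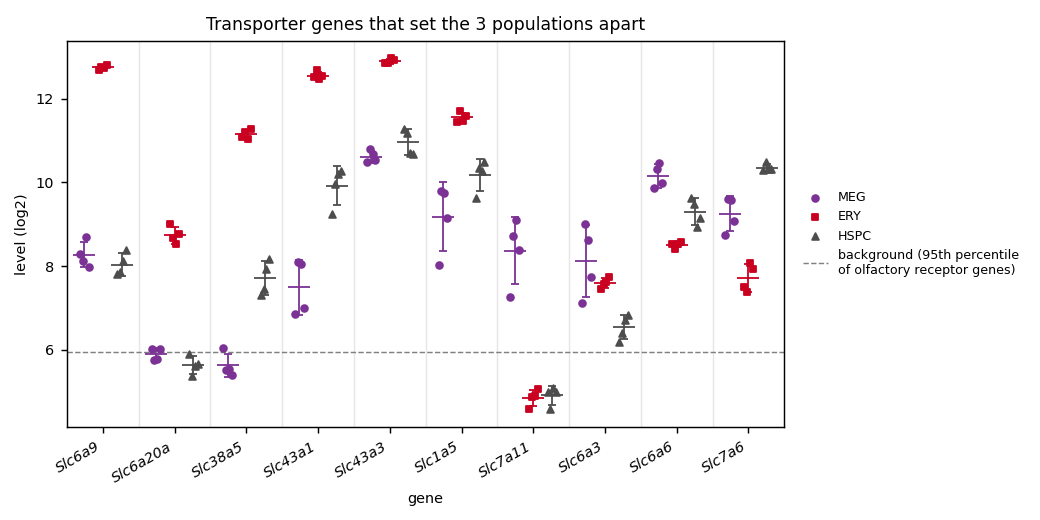
Level (log2) on each array of 10 transporter genes (x axis), with MEG, ERY and HSPC side by side. Horizontal marks and bars are means and SD of 4 arrays, and the dashed line is the background at 5.95. Slc6a9 averages 12.75 in ERY against 8.04 in HSPC, and Slc7a11 averages 8.37 in MEG against 4.90 in HSPC.

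Glutamine and small neutral amino acids are carried by the SLC38 and SLC1 families, and a few of these genes moved apart in the 2 lineages. Calls against HSPC were opposite in MEG and ERY for 2 of 11 SLC38 genes and 1 of 7 SLC1 genes. In at least 1 comparison 8 of 11 SLC38 genes and 1 of 7 SLC1 genes changed, beside 32.9% of all genes. Slc38a5, a sodium-coupled carrier of glutamine, asparagine, histidine, serine and glycine, measured 6.04, 5.52, 5.54 and 5.40 on the MEG arrays, 11.09, 11.20, 11.05 and 11.29 on the ERY arrays, and 7.31, 7.44, 7.92 and 8.18 on the HSPC arrays. The populations did not overlap, with MEG lowest and ERY highest. The change was −2.09 ± 0.20 (adjusted p = 9.16e-06) in MEG and 3.44 ± 0.20 (adjusted p = 7.45e-08) in ERY against HSPC. MEG against ERY was −5.53 ± 0.20, or 46.3-fold lower in MEG, with an adjusted p of 8.16e-10, and this was the 27th largest decrease of all genes. The MEG mean of 5.62 lay below background, so both folds with MEG rest on a level that the array does not separate from unexpressed genes.

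Slc1a5, the glutamine exchanger ASCT2, followed the same order. It measured 8.02, 9.80, 9.74 and 9.16 on the MEG arrays, 11.45, 11.70, 11.47 and 11.60 on the ERY arrays, and 9.62, 10.35, 10.28 and 10.49 on the HSPC arrays. ERY lay above all other arrays and MEG overlapped HSPC. The change was 1.37 ± 0.33 in ERY against HSPC (adjusted p = 0.00652) and −2.38 ± 0.33 in MEG against ERY (adjusted p = 0.000137). The change in MEG against HSPC was −1.01 ± 0.33 (adjusted p = 0.0347). That call was lost without MEG replicate 1 (−0.62), MEG replicate 4 (−1.0), or HSPC replicate 2 (−0.95), 3 (−0.97) or 4 (−0.90), with adjusted p up to 0.0889. Its relative Slc1a4, a carrier of alanine, serine and cysteine, averaged 8.50 in MEG, 7.76 in ERY and 7.59 in HSPC and was not called, with 0.92 ± 0.26 (adjusted p = 0.016) in MEG against HSPC.

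The system A carriers Slc38a1 and Slc38a2, which pump small neutral amino acids with sodium, differed from each other. Slc38a1 measured 9.01, 10.09, 10.25 and 9.49 on the MEG arrays, 8.96, 8.30, 9.02 and 9.02 on the ERY arrays, and 10.70, 10.53, 9.98 and 9.94 on the HSPC arrays. ERY lay below every HSPC array, with a change of −1.47 ± 0.29 (adjusted p = 0.00145), and MEG overlapped both. Slc38a2 averaged 10.68 ± 0.39 in MEG, 11.13 ± 0.12 in ERY and 10.77 ± 0.62 in HSPC (SD, n = 4 each), with all 3 populations overlapping and no call.

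On the lysosome, Slc38a7 exports glutamine and Slc38a9 passes the presence of arginine to mTORC1, the kinase complex that couples growth to amino acids. Slc38a7 measured 7.30, 7.39, 8.10 and 7.03 on the MEG arrays, 7.50, 7.78, 7.80 and 7.91 on the ERY arrays, and 8.22, 9.17, 9.63 and 9.68 on the HSPC arrays. Both lineages were below all HSPC arrays, with changes of −1.72 ± 0.31 (adjusted p = 0.000886) in MEG and −1.43 ± 0.31 (adjusted p = 0.00291) in ERY. Without HSPC replicates 3 and 4 together the ERY value was −0.95. Slc38a9 measured 8.86, 8.41, 8.57 and 7.87 on the MEG arrays, 9.86, 9.83, 9.28 and 9.38 on the ERY arrays, and 8.89, 8.66, 8.13 and 7.99 on the HSPC arrays. ERY lay above both other populations, by 1.17 ± 0.25 over HSPC (adjusted p = 0.00285), and MEG against ERY was −1.16 ± 0.25 (adjusted p = 0.00367). The difference between MEG and ERY was −0.97 without MEG replicate 4 and −0.86 when its 2 probe sets were averaged, both short of 2-fold. The ERY change was 0.81 without HSPC replicates 3 and 4.

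Slc38a6 and Slc38a10 are less well described members of the family. Slc38a6 measured 7.96, 7.39, 8.33 and 7.75 on the MEG arrays, 6.51, 6.86, 6.86 and 6.73 on the ERY arrays, and 7.01, 6.77, 6.45 and 6.16 on the HSPC arrays. MEG lay above the other populations, by 1.26 ± 0.22 over HSPC (adjusted p = 0.000734) and by 1.12 ± 0.22 over ERY (adjusted p = 0.00175), and the call against ERY was lost without MEG replicate 3 (0.96). The call against HSPC held with any single array left out but was lost under 2 of the 24 alternatives. Slc38a10 averaged 9.96 ± 0.29 in MEG, 8.95 ± 0.07 in ERY and 9.72 ± 0.40 in HSPC (SD, n = 4 each). MEG exceeded ERY by 1.01 ± 0.20 (adjusted p = 0.00164), a call that was lost without MEG replicate 1, 2 or 3 or ERY replicate 3, at values between 0.95 and 0.99.

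All 3 genes of the SLC43 family, 2 of them large neutral amino acid carriers, changed in at least 1 comparison, beside 32.9% of all genes. Slc43a1, a facilitative carrier of leucine, isoleucine, valine, methionine and phenylalanine, measured 6.85, 8.09, 8.04 and 7.0 on the MEG arrays, 12.53, 12.68, 12.47 and 12.55 on the ERY arrays, and 9.25, 9.96, 10.20 and 10.27 on the HSPC arrays. The populations did not overlap, with MEG lowest and ERY highest, and MEG replicates 1 and 4 were about 1 unit below replicates 2 and 3. The change was −2.43 ± 0.30 (adjusted p = 6.64e-05) in MEG and 2.64 ± 0.30 (adjusted p = 2.37e-05) in ERY against HSPC. Between the lineages it was −5.06 ± 0.30 (adjusted p = 5.54e-08), 33.5-fold lower in MEG and the 41st largest decrease of all genes.

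Slc43a2, the related carrier LAT4, ran the other way. It measured 8.69, 7.78, 8.71 and 8.35 on the MEG arrays, 6.69, 7.31, 7.28 and 7.33 on the ERY arrays, and 7.60, 7.96, 8.12 and 8.55 on the HSPC arrays. MEG exceeded ERY by 1.23 ± 0.25 (adjusted p = 0.00233) with no overlap, and neither lineage passed the threshold against HSPC. Slc43a3, which carries purine nucleobases and not amino acids, measured 10.48, 10.80, 10.67 and 10.53 on the MEG arrays, 12.85, 12.85, 12.97 and 12.93 on the ERY arrays, and 11.29, 11.19, 10.71 and 10.69 on the HSPC arrays. ERY lay above every other array, by 1.93 ± 0.15 over HSPC (adjusted p = 1.28e-06), and MEG against ERY was −2.28 ± 0.15 (adjusted p = 1.86e-07). Unlike these, Slc43a2 had its lowest mean of 7.15 in ERY, against 8.38 in MEG and 8.06 in HSPC.

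In the SLC7 family, which holds the light chains, 5 of 15 genes changed in at least 1 comparison, a share near the 32.9% of all genes. The heavy chain Slc3a2, also known as CD98, was nearly level across the populations while several of its light chains changed. It measured 12.33, 12.26, 12.34 and 12.13 on the MEG arrays, 12.26, 12.29, 12.25 and 12.37 on the ERY arrays, and 11.75, 12.13, 12.19 and 12.31 on the HSPC arrays. The changes were 0.17 ± 0.13 in MEG and 0.20 ± 0.13 in ERY against HSPC, with adjusted p of 0.34 and 0.31. The other heavy chain Slc3a1, which pairs with Slc7a9 in kidney and intestine, was at background with means of 5.78 in MEG, 5.72 in ERY and 5.42 in HSPC, as was Slc7a9.

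Slc7a11 forms with Slc3a2 the exchanger that imports cystine, the source of cysteine for glutathione. It measured 7.25, 8.73, 9.11 and 8.38 on the MEG arrays, 4.59, 4.87, 4.89 and 5.06 on the ERY arrays, and 4.98, 4.57, 5.08 and 4.99 on the HSPC arrays. Every MEG array was more than 2 units above every other array, and ERY and HSPC were at background. The change in MEG was 3.46 ± 0.31 against HSPC (adjusted p = 5.78e-06), or 11.0-fold, the 104th largest increase of all genes. Against ERY it was 3.51 ± 0.31 (adjusted p = 2.47e-06). As both other populations were below background, these folds rest on a level that is not separated from unexpressed genes.

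Slc7a6, the light chain of an exchanger of cationic for neutral amino acids, fell in both lineages. It measured 8.75, 9.61, 9.58 and 9.09 on the MEG arrays, 7.49, 7.39, 8.07 and 7.94 on the ERY arrays, and 10.29, 10.49, 10.33 and 10.32 on the HSPC arrays. The populations did not overlap, with HSPC highest and ERY lowest. The change was −1.10 ± 0.21 (adjusted p = 0.00143) in MEG and −2.63 ± 0.21 (adjusted p = 1.3e-06) in ERY against HSPC, and MEG exceeded ERY by 1.53 ± 0.21 (adjusted p = 0.000111). The call in MEG was lost without MEG replicate 1, at −0.93. Slc7a6os, a gene next to Slc7a6 that encodes no transporter, changed by −0.45 in MEG and −0.57 in ERY and was not called.

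Slc7a5, the light chain LAT1 for large neutral amino acids, measured 10.55, 11.68, 11.68 and 11.19 on the MEG arrays, 12.25, 12.40, 12.24 and 12.31 on the ERY arrays, and 11.17, 11.82, 11.97 and 12.23 on the HSPC arrays. ERY lay above all MEG arrays, and MEG overlapped HSPC, while the lowest ERY array was barely above the highest HSPC array. The changes of −0.53 ± 0.26 in MEG and 0.50 ± 0.26 in ERY against HSPC were not called. The call in MEG against ERY (−1.03 ± 0.26, adjusted p = 0.0107) was lost without MEG replicate 1 (−0.78), MEG replicate 4 (−1.0) or ERY replicate 2 (−0.99). The cationic amino acid carrier Slc7a1, which works without a heavy chain, averaged 9.03 in MEG, 9.80 in ERY and 9.33 in HSPC and was not called, with −0.77 ± 0.22 (adjusted p = 0.02) in MEG against ERY. The arginine carriers Slc7a2 and Slc7a3 were not called either, and Slc7a3 was at background.

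Of the 27 transporter genes above background in MEG, MEG replicate 1 was the lowest of the 4 MEG arrays in 13, among them Slc1a5, Slc43a1, Slc7a11 and Slc7a5, and the highest in 6, among them Slc38a9, Slc38a10 and Slc6a8. Replicates 2 and 3 were both above replicates 1 and 4 in 14 of the 27 and both below them in 3. Megakaryocyte markers did not follow this division, with medians of 12.41 on replicate 1 and 12.47 on replicate 4 beside 12.54 on replicate 2 and 12.39 on replicate 3. What sets these arrays apart was not tested.

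**Figure D4:**
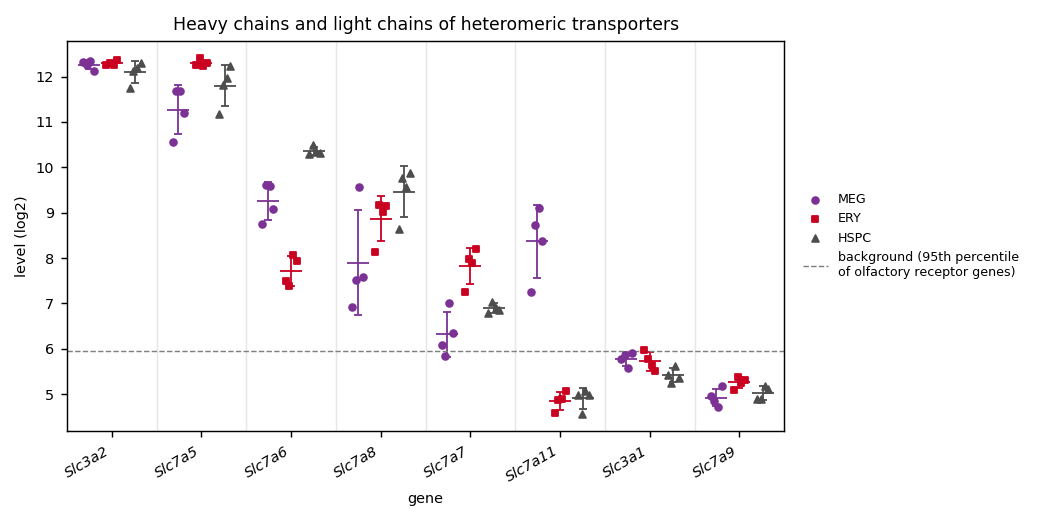
Level (log2) on each array of the heavy chains Slc3a2 and Slc3a1 and of 6 light chains (x axis), with MEG, ERY and HSPC side by side. Marks and bars are means and SD of 4 arrays, and the dashed line is the background at 5.95. Slc3a2 averages 12.27 in MEG, 12.29 in ERY and 12.09 in HSPC, while Slc7a11 is above background in MEG and Slc7a6 is highest in HSPC.

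In the SLC36 family of proton-coupled carriers, Slc36a1, which sits largely on lysosomes, measured 8.33, 9.04, 9.31 and 8.65 on the MEG arrays, 8.23, 7.97, 7.96 and 8.07 on the ERY arrays, and 8.90, 9.11, 9.33 and 9.50 on the HSPC arrays. ERY lay below all HSPC arrays, with a change of −1.15 ± 0.20 (adjusted p = 0.000748), which was −0.95 without HSPC replicates 3 and 4. Slc36a2, a carrier of glycine and proline, averaged 5.70 ± 0.13 in MEG, 6.75 ± 0.23 in ERY and 6.05 ± 0.18 in HSPC (SD, n = 4 each). MEG were below ERY (−1.05 ± 0.14, adjusted p = 0.000119), a call that was lost without ERY replicate 1 (−0.95).

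Some members moved together with hepatocyte genes. Slc38a4, a system A carrier known from liver, measured 5.14, 5.36, 5.23 and 5.31 on the MEG arrays, 8.61, 8.44, 8.03 and 8.29 on the ERY arrays, and 6.05, 7.53, 6.05 and 6.09 on the HSPC arrays. Among HSPC only replicate 2, the array with the highest hepatocyte median of 9.98, stood above 6.09. The change was −1.17 ± 0.29 (adjusted p = 0.00685) in MEG, 1.91 ± 0.29 (adjusted p = 0.000218) in ERY and −3.08 ± 0.29 (adjusted p = 3.7e-06) in MEG against ERY. Without HSPC replicate 2 the MEG change was −0.81, short of 2-fold, and the ERY change was 2.27.

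Slc6a13 and Slc38a3, a glutamine carrier of liver cells around the central vein, showed a similar order. Slc6a13 measured 5.49, 5.86, 5.92 and 5.49 on the MEG arrays, 7.84, 7.67, 7.37 and 7.76 on the ERY arrays, and 6.09, 7.37, 6.47 and 6.97 on the HSPC arrays. Slc38a3 measured 5.71, 5.54, 5.43 and 5.70 on the MEG arrays, 7.46, 6.90, 6.76 and 6.91 on the ERY arrays, and 5.72, 6.59, 5.94 and 6.43 on the HSPC arrays. In both genes HSPC replicate 2 was the highest HSPC array and MEG was below background. Slc6a13 changed by −1.03 ± 0.24 (adjusted p = 0.00538) in MEG against HSPC, a call lost without MEG replicate 1 (−0.97) or 4 (−0.97) or HSPC replicate 2 (−0.82) or 4 (−0.95), and by −1.97 ± 0.24 (adjusted p = 4.49e-05) in MEG against ERY. Slc38a3 changed by −1.41 ± 0.21 (adjusted p = 0.00019) in MEG against ERY. Of the 13 hepatocyte genes measured, 5 were above background in MEG, 13 in ERY and 12 in HSPC, and their median change was −2.65 in MEG, 1.74 in ERY and −4.58 in MEG against ERY. Their part in the values of Slc38a4, Slc6a13 and Slc38a3 was not tested.

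The light chains Slc7a7 and Slc7a8 were highest within MEG on the array with the highest macrophage and neutrophil medians, and lowest within ERY on the array with the lowest macrophage median. The first trait was not particular to them. MEG replicate 3 was also the highest MEG array in many other members, among them Slc38a1, Slc38a2, Slc38a6, Slc6a9, Slc7a1 and Slc7a11. Slc7a7, which is high in macrophages and in kidney, measured 6.08, 5.85, 7.0 and 6.34 on the MEG arrays, 7.26, 7.98, 7.89 and 8.19 on the ERY arrays, and 6.80, 7.04, 6.91 and 6.86 on the HSPC arrays. MEG replicate 3 was highest in MEG and ERY replicate 1 lowest in ERY, the same arrays as for the macrophage genes. MEG against ERY was −1.51 ± 0.24 (adjusted p = 0.000423).

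Slc7a8, the light chain LAT2, measured 6.93, 7.52, 9.57 and 7.59 on the MEG arrays, 8.13, 9.18, 9.02 and 9.15 on the ERY arrays, and 8.65, 9.77, 9.57 and 9.88 on the HSPC arrays. MEG replicate 3 lay among the HSPC arrays and the others below them all. The mean was highest in HSPC, at 9.47, where the macrophage medians were between 6.75 and 7.59. The change in MEG against HSPC was −1.56 ± 0.49 (adjusted p = 0.0257). It was lost without any 1 of MEG replicates 1, 2 and 4 or HSPC replicates 2, 3 and 4, with values between −1.53 and −1.24 and adjusted p up to 0.0711, and was −2.12 without MEG replicate 3. The proton-coupled carrier Slc36a4 was likewise highest on MEG replicate 3 within MEG, at 8.22 against 6.57 to 6.84 on the other MEG arrays, and was not called in any comparison. Its mean was lowest in ERY, at 6.13 against 7.10 in MEG and 7.10 in HSPC. The macrophage medians on the ERY arrays were between 8.17 and 9.26. Of 12 macrophage genes measured, 10 were above background in MEG, 11 in ERY and 10 in HSPC, and their part in these values was not tested.

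**Figure D5:**
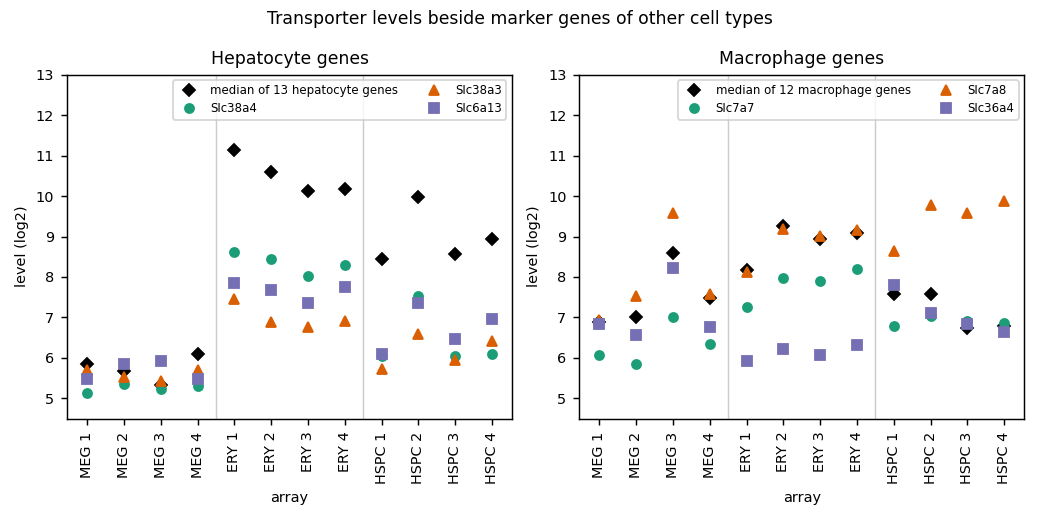
Level (log2, y axes) on each MEG, ERY and HSPC array (x axes) of the median of 13 hepatocyte genes beside Slc38a4, Slc38a3 and Slc6a13 (left), and of the median of 12 macrophage genes beside Slc7a7, Slc7a8 and Slc36a4 (right). HSPC replicate 2 has the highest HSPC value in each left-hand series, and MEG replicate 3 the highest MEG value in each right-hand series.

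Genes that use or sense the transported amino acids were read from 8 lists. Of all 19937 genes, 8.77% were higher and 11.4% lower in MEG against HSPC, and 8.35% higher and 12.3% lower in ERY against HSPC. In MEG against ERY 8.75% were higher and 7.77% lower. With centring on ribosomal protein genes 4314 of all genes were higher and 919 lower in MEG, and 3080 higher and 1344 lower in ERY. In glutathione synthesis and cysteine supply, 2 of 9 genes measured were higher in MEG against HSPC and none lower, and 5 were higher in ERY and none lower. Gclm, the regulatory subunit of the enzyme that joins glutamate to cysteine, rose by 3.16 in MEG (adjusted p = 3.17e-06) and by 3.23 in ERY (adjusted p = 1.69e-06). Chac2, which breaks glutathione down, rose by 3.19 in MEG and by 6.14 in ERY, with adjusted p of 0.000111 and 3.57e-07. Gclc, the catalytic subunit, rose by 2.04 in ERY (adjusted p = 1.25e-05), as did Gss by 1.60 (adjusted p = 0.00959). The median change of the list was 0.60 in MEG and 1.0 in ERY, and with centring on ribosomal protein genes 6 were higher in each.

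In serine and glycine synthesis and breakdown, 6 of 13 genes were lower in MEG and 1 higher, and 5 were lower in ERY and 3 higher. With centring on ribosomal protein genes 5 were lower and 2 higher in MEG, and 3 were lower and 3 higher in ERY. Phgdh, the first enzyme of serine synthesis, changed by −2.67 in MEG and −2.54 in ERY (adjusted p = 0.000105 and 0.000118). Shmt1, which makes glycine from serine in the cytosol, changed by −2.37 in MEG and −2.06 in ERY (adjusted p = 2.25e-05 and 4.66e-05). Shmt2, its mitochondrial counterpart, changed by −2.03 in MEG (adjusted p = 0.00384) while the change of −0.89 in ERY had an adjusted p of 0.17. Gldc, of the glycine cleavage system, was 1.29 higher in ERY (adjusted p = 0.000241), where its mean was 7.24, against 5.94 in HSPC. The HSPC mean and the MEG mean of 5.34 were below background. This order of the populations was also that of the hepatocyte medians, and their part in the values of Gldc was not tested. The glycine carrier Slc6a9 rose in ERY, where Phgdh and Shmt1 fell. Both enzymes fell in MEG as well, where Slc6a9 changed by 0.24 with no call, and a link between them was not tested.

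In branched-chain amino acid breakdown, 6 of 13 genes were lower in MEG and 2 higher, and 6 were lower and 1 higher in ERY. Bcat1 and Bcat2, the transaminases of the first step, changed by −1.69 and −1.49 in MEG and by −2.06 and −1.84 in ERY. Bckdhb, of the dehydrogenase of the second step, changed by −1.91 in MEG and −2.40 in ERY, with adjusted p of 0.000221 and 2.9e-05. Acadsb, which acts further down, rose by 1.83 in MEG and 1.96 in ERY. With centring on ribosomal protein genes the list had 4 lower and 3 higher in MEG, and 4 lower and 1 higher in ERY.

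In glutamine, glutamate, aspartate and asparagine metabolism, 1 of 11 genes changed in MEG and 3 in ERY. Asns, which makes asparagine from glutamine, was higher in ERY by 1.47 (adjusted p = 0.000204), and Prodh, the first enzyme of proline breakdown, was lower (−2.80, adjusted p = 2.47e-05). Prodh averaged 8.60 in MEG, 6.59 in ERY and 9.39 in HSPC, so that it was lowest where the proline carrier Slc6a20a was highest. Slc6a20a was at background in MEG and HSPC, and a link between Prodh and Slc6a20a was not tested. In arginine and polyamine metabolism, Azin1, an inhibitor of antizyme, rose by 3.03 in ERY (adjusted p = 3.62e-05), and Odc1, the first enzyme of polyamine synthesis, rose by 1.70 (adjusted p = 0.000382). Srm, which makes spermidine, was lower in both, by −1.93 in MEG and −2.18 in ERY. The list had 1 of 10 genes changed in MEG and 5 in ERY, and with centring on ribosomal protein genes 5 in MEG and 4 in ERY.

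In the integrated stress response, which is triggered by amino acid shortage among other stresses and acts on amino acid response elements, 6 of 18 genes were higher in MEG and 6 in ERY, with none lower. With centring on ribosomal protein genes 13 were higher in MEG and 8 in ERY. The genes with the largest increases differed. Vldlr, a lipoprotein receptor, rose by 5.13 in MEG (adjusted p = 7.04e-10) and Ddit4, an inhibitor of mTORC1, by 2.09 (adjusted p = 2.8e-06). In ERY the largest were Eif2ak1, the heme-regulated kinase of the pathway, at 3.19 (adjusted p = 2.52e-06), and Ppp1r15a, a subunit of the phosphatase that opposes it, at 2.78 (adjusted p = 6.88e-07). Ddit3 and Cebpg, transcription factors of the pathway, were higher in both, by 1.65 and 1.58 in MEG and by 1.16 and 1.32 in ERY. Other genes of the list were not called in either, with changes in MEG and ERY of −0.09 and 0.33 for Atf4 and 0.22 and 0.20 for Atf5. Trib3 (0.83 and 0.36) and Chac1 (1.04 and 0.55) were not called either. Asns, called in ERY, changed by 0.28 in MEG with no call. A relation of this pathway to Slc7a11 was not tested. MEG against ERY had 3 higher and 3 lower.

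In amino acid sensing at mTORC1, 4 of 29 genes were higher and 7 lower in MEG, and 3 higher and 6 lower in ERY, counts that turned to 9 higher and 2 lower in MEG and 8 higher and 2 lower in ERY with centring on ribosomal protein genes. Fnip2, a partner of folliculin, rose by 2.75 in ERY (adjusted p = 2.18e-06), and Rragc, one of the Rag GTPases, by 1.78 in MEG (adjusted p = 0.000777). Rragb, another Rag GTPase, was lower in ERY (−2.20, adjusted p = 7.58e-05). Of 17 cytosolic aminoacyl-tRNA synthetases, which load amino acids onto tRNA, 1 was higher and 3 lower in MEG, and 2 were higher and 2 lower in ERY. Centring on ribosomal protein genes turned these counts to 4 higher and 1 lower in MEG and 6 higher in ERY. Nars rose by 1.60 in ERY (adjusted p = 0.0038), and Vars changed by −2.17 in MEG and −1.34 in ERY.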

How the data were processed

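RNA of 12 samples, 4 each of MEG, ERY and HSPC, was hybridised to GeneChip Mouse Gene ST arrays. The authors summarised the arrays by RMA, which corrects background, equalises the arrays and summarises probes, and deposited log2 values for 34760 probe sets. The sources used here give neither its settings nor its version. Chromatin data were not analysed here. Array medians were between 5.99 and 6.25, and the number of arrays limits the precision.

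Probe sets with 1 gene symbol (21640) were kept, and those with several symbols (1321) or none in the platform annotation (11799) were left out. Where a gene had several probe sets, as 2 members did, the one with the highest mean level was read. The 63 members matched RefSeq gene identifiers. The members and lists were chosen with earlier results of these data known.

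One mean per population was fitted to all 12 arrays with limma 3.58.1 in R 4.3.3, with no limit on expression, and the recovery of known changes was tested on simulated data. The genes named are the called members, both heavy chains, the 6 members with the highest mean, uncalled members where a family or partner is described, and up to 4 called genes per other list and comparison. A few uncalled members just short of the threshold, and the uncalled genes of the integrated stress response, were chosen after their values were seen.

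Alternatives were a block for the replicate number, a fit of the 8 arrays compared, omission of single arrays or pairs of arrays, genes above background alone, quantile normalisation, centring on ribosomal protein genes, averaging of probe sets, a robust variance with a trend, a 1.5-fold threshold and an FDR of 1%. Python 3.11.15, pandas 2.3.3, numpy 2.4.6 and matplotlib 3.10.9 served for tables and figures.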

Additional observations from a re-analysis of the deposited data

Results flagged for a closer look

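In 4 of 84 groups of 4 arrays among the named members, 1 array stood apart by Dixon's test, in which its gap to the nearest array is divided by the range of the group. Chance gives about 1 in 20 such groups. Slc38a4 was 7.53 on HSPC replicate 2 and between 6.05 and 6.09 on the other HSPC arrays (gap 0.973 of the range). Slc43a2 was 6.69 on ERY replicate 1 and between 7.28 and 7.33 on the other ERY arrays (0.922). Slc38a1 was 8.30 on ERY replicate 2 and between 8.96 and 9.02 on the others (0.916). Slc7a8 was 8.13 on ERY replicate 1 and between 9.02 and 9.18 on the others (0.845).

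The changes against HSPC differed between MEG and ERY, with opposite calls, in 4 genes. The difference was tested directly as MEG minus ERY in limma and was −5.53 for Slc38a5, −5.06 for Slc43a1, −3.08 for Slc38a4 and −2.38 for Slc1a5. MEG was below all HSPC arrays in Slc38a5, Slc43a1 and Slc38a4 and overlapped HSPC in Slc1a5, and ERY was above all HSPC arrays in these 4 genes.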

How the results depend on the processing

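Of the 44 called values of single members, 27 passed under every one of the alternatives in which they could be computed, 17 were lost under at least 1, and none reversed. Slc6a15 had no value among genes above background alone. With 1 array left out, 32 kept their call in all 12 settings. The number of members called then lay between 7 and 12 in MEG against HSPC, between 12 and 15 in ERY against HSPC and between 17 and 21 in MEG against ERY, beside 11, 13 and 20 with all arrays. The 7 came without HSPC replicate 2. At a 1.5-fold threshold 21 members were called in ERY against HSPC, a count that is higher by the construction of the threshold. Fits with the replicate number as a block called 11, 13 and 20 members as well. Arrays with the same number did not deviate together, with 5 of 12 correlations above 0.1 and a range of −0.35 to 0.36, so the numbers were not taken to pair the arrays. Counts above background were 38 of 61, and 32 when the median of all genes was the limit. Of the other lists, the mTORC1 list had 3 higher and 4 lower genes in MEG and 4 higher and 2 lower in ERY without HSPC replicates 3 and 4, and serine and glycine metabolism had 2 higher and 3 lower in ERY then. The aminoacyl-tRNA synthetases had 5 higher and 3 lower in ERY without HSPC replicates 1 and 2, and their median change in ERY was −0.16 without replicates 3 and 4, beside 0.24 with all arrays. Precision is limited by 4 arrays a population, and folds that involve a mean below 5.95 are limited by array background.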

Other observations

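Among members of the SLC1 and SLC7 families close to background, Slc1a2, a glutamate carrier of glia and liver, averaged 5.93 in MEG, 6.41 in ERY and 6.01 in HSPC, with a change of 0.40 ± 0.12 (adjusted p = 0.02 in limma) in ERY against HSPC that stayed under 2-fold. Slc7a2, a carrier of arginine and lysine, measured 6.87, 5.69, 6.48 and 6.68 on the MEG arrays, 6.80, 6.34, 6.35 and 6.21 on the ERY arrays, and 6.31, 6.04, 5.88 and 5.98 on the HSPC arrays, and was not called. Slc7a4 measured 6.46, 5.96, 5.89 and 6.38 on the MEG arrays, 5.98, 6.19, 6.23 and 6.01 on the ERY arrays, and 6.03, 6.31, 6.70 and 7.01 on the HSPC arrays, where replicates 3 and 4 were above all other arrays. It was not called in any comparison.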
